A study of Homo sapiens with 6 samples.

Results

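Vasorin (VASN) and 9 core genes of transforming growth factor beta (TGF-beta) signalling were followed in the human line MDA-MB-231, derived from a triple-negative breast cancer, after depletion of SF3B6, a subunit of the SF3b part of the spliceosome. The 10 genes, VASN, TGFB1, TGFB2, LTBP1, TGFBR1, TGFBR2, SMAD2, SMAD3, SMAD4 and SMAD7, were taken by symbol from a deposited table of read counts for 39323 genes, and all 10 were among the 16869 genes with enough reads to be tested. They were chosen with their values in these same libraries known, so their levels and differences are given as a description, with no p-value. The study sequenced polyadenylated RNA from 3 libraries of cells given an siRNA duplex against SF3B6 (siSF3B6) and 3 libraries of cells given a non-targeting duplex (siNC). Both groups received the same lipid transfection and were grown in the same serum-containing medium, and the series design names what SF3B6 does in these cells as its question. It calls the 3 libraries of a group biological replicates, while the labels say nothing of separate cultures, so the spread between libraries is that of these preparations. No time between transfection and harvest and no added TGF-beta ligand is named in the labels.

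TGF-beta ligands are secreted in a latent form, held by their own propeptide and by latent TGF-beta binding proteins in the matrix. Once released, a ligand brings together type II and type I receptor kinases, and the activated type I kinase phosphorylates SMAD2 and SMAD3. These enter the nucleus with SMAD4 and regulate target genes, among them SMAD7, which feeds back on the receptors. Vasorin, a transmembrane protein with leucine-rich repeats, binds TGF-beta ligands and dampens their signalling, and the protease ADAM17 releases its soluble form. In breast cancer cells the pathway is known for slowing growth in early disease and for promoting invasion and metastasis later.

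The sense strands of both duplexes are printed because they are the only designed difference between the groups. Each is written 5′ to 3′ with bases 12 to 18 in capitals, the stretch that equals the target-site match of the guide strand's seed (guide bases 2 to 8).
siSF3B6: ggaggaacaguUGAAGCUutt
siNC: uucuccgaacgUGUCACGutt
The siSF3B6 seed match occurred in the annotated 3′ UTR of 14.9% of 13303 tested protein-coding genes, and the siNC seed match in 3.07%. Among the 10 genes, the siSF3B6 match occurred 3 times in the 3′ UTR of SMAD2 and once each in those of TGFBR1, TGFBR2 and SMAD3. Neither match occurred in the 3′ UTR of VASN, SMAD7, LTBP1, SMAD4, TGFB1 or TGFB2. The 3′ UTR with matches was 32870 bases long in SMAD2, 4887 in TGFBR1, 4659 in SMAD3 and 2535 in TGFBR2. Those without a match ran from 629 bases (VASN) to 6572 bases (SMAD4). A longer 3′ UTR has more places for a match. A match is a run of letters and says nothing of binding.

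The promoters of VASN and SMAD7, the genes with the largest difference in each direction, are shown because their base composition and motifs differ. Each runs from 250 bases before to 50 bases after the start of transcription in RefSeq (GRCh38.p14). In the VASN promoter, at chr16:4371598-4371897 on the plus strand, capitals mark the GC box CCGCCC or its complement GGGCGG. In the first of 3 SMAD7 promoters listed, at chr18:48950916-48951215 on the minus strand, capitals mark the SMAD half-site CAGAC or its complement GTCTG.
VASN promoter: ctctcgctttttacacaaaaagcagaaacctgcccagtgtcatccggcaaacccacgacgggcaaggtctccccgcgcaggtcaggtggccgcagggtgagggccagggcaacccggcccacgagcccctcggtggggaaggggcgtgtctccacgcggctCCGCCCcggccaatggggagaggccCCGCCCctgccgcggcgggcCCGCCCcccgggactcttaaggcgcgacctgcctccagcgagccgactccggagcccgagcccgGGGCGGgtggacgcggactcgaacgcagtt
SMAD7 promoter: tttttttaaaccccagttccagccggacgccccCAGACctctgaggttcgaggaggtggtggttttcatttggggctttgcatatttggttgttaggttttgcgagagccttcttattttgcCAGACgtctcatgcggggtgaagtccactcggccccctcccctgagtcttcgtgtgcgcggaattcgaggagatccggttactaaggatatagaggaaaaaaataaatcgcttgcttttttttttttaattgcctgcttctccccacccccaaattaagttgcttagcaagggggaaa
The VASN window held 4 GC boxes, no CAGAC or GTCTG, and 72.0% G and C. The SMAD7 window held 2 SMAD half-sites, no GC box, and 48.3% G and C. The other SMAD7 windows, not shown, held 1 half-site at 57.0% G and C and no half-site at 49.3%, and neither held a GC box. Among the other genes, TGFB1, SMAD4 and TGFB2 had a single window each. That of TGFB1 held 7 GC boxes and no half-site at 77.3% G and C. The SMAD4 window held 2 GC boxes and no half-site at 66.7%. In the TGFB2 window there were 2 half-sites and no GC box at 51.7%. The part of these motifs in the differences was not tested. Of 35114 RefSeq promoters of the same length, 45.0% held a GC box and 45.3% a SMAD half-site on either strand, and the median G and C content was 58.7%. Both motifs are thus common, and each was counted without regard to overlap with the other. All 10 genes had a promoter in the table, 27 windows in all, and none of the 27 held the full palindrome GTCTAGAC, which was found in 0.202% of promoters.

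The libraries held 28504091 to 38546037 counted reads each, and 29627499 or more in all but siNC replicate 2. SF3B6 (chr2:24067584-24076443, minus strand, GRCh38) had 22.5, 25.0 and 21.3 CPM in the siSF3B6 libraries, against 86.4, 80.6 and 102 CPM in the siNC libraries, where CPM are counts scaled to library size with TMM factors. It thus fell to 25.6% of siNC. On the log2 scale the change was -1.96 with SE 0.104 and an adjusted p = 1.43e-07 (edgeR's quasi-likelihood test). The exact two-sided permutation p was 0.1, the smallest that 3 against 3 libraries allow. The siNC libraries were not alike: mitochondrial genes took 9.07% of the reads of siNC replicate 3, but 3.38% and 3.93% in siNC replicates 1 and 2, and 10.6% to 11.8% in the siSF3B6 libraries. Genes with 1 to 9 reads numbered 7731 in siNC replicate 3, 13952 and 14956 in siNC replicates 1 and 2, and 7877 to 8325 in the siSF3B6 libraries. Results are therefore also given against siNC replicate 3 alone, without it, or within the libraries numbered 1 and 2. All 5 mesenchymal markers of this line (VIM, CD44, AXL, CAV1 and ANXA1) were at 43.1 FPKM or more in every library, and of the epithelial and hormone receptor markers ESR1 and PGR were at 0.02 FPKM or less and CDH1 at 0.57 to 1.02 FPKM. EPCAM, an epithelial adhesion molecule, was at 7.48, 7.59 and 8.15 FPKM in siSF3B6 and 3.92, 3.83 and 3.51 FPKM in siNC libraries, and ERBB2 was at 4.13 to 5.38 FPKM over all 6. FPKM, fragments scaled to library size and transcript length, are the authors' values. The summed fibroblast markers were at 2.40 to 3.36 FPKM in siSF3B6 and 1.82 to 2.17 FPKM in siNC libraries, and 6 of the 7 stayed under 1 FPKM throughout. Of 4 endothelial markers 3 stayed under 1 FPKM throughout, and PECAM1 was at 0.71 to 1.07 FPKM. Of 5 immune markers 3 stayed under 1 FPKM throughout, but CD14 was at 5.72 to 7.55 FPKM over all 6 libraries. CD68 was at 1.44, 1.47 and 1.3 FPKM in siSF3B6 and 0.68, 0.56 and 1.41 FPKM in siNC libraries. The 5 epithelial and hormone receptor markers summed to 12.9 to 13.3 FPKM in siSF3B6 and 8.22 to 9.93 FPKM in siNC libraries. The part of any of these markers in the results below was not tested.

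VASN was the lowest of the 10 genes relative to siNC. It had 7.62, 7.77 and 5.92 CPM in the siSF3B6 libraries, against 20.8, 19.5 and 15.6 CPM in the siNC libraries. Every siSF3B6 library lay below every siNC library, and the number 3 library was the lowest of its group in both. These levels rest on 224, 287 and 181 reads in siSF3B6 and 649, 587 and 523 reads in siNC libraries. The mean was 7.10 ± 1.03 CPM in siSF3B6 and 18.6 ± 2.72 CPM in siNC (SD, n = 3 each), so that 38.3% of the siNC level remained, a log2 fold change of -1.39 (SE 0.135). In bulk RNA, less transcript in every cell and fewer cells that make it cannot be told apart.

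The VASN difference had the same sign under all 21 alternative settings, between -1.50 and -1.07. Against siNC replicate 3 alone it was -1.14, without that library -1.50, and -1.38 within the libraries numbered 1 and 2. The smallest value, -1.07, came with an offset for GC content and transcript length, which takes out each library's own trend along both. The GC content of the VASN transcript was 66.2%, against a median of 48.7% over the 16680 tested genes with an annotated transcript.

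VASN (ENSG00000168140.5) lies at chr16:4371848-4383528 on the plus strand of GRCh38 in GENCODE release 29, with 2 exons, of which 1 is coding, in a transcript of 2806 bases. It sits within the span of CORO7, a coronin of the Golgi, and of the readthrough gene CORO7-PAM16 on the opposite strand, and shares no exonic base with either. CORO7-PAM16 had 16.6, 16.1 and 11.9 CPM in siSF3B6 and 29.7, 26.9 and 19.6 CPM in siNC libraries, a log2 fold change of -0.77 (adjusted p = 0.00125, edgeR's quasi-likelihood test). CORO7 had 6.60, 5.82 and 3.69 CPM in siSF3B6 and 7.18, 8.08 and 8.19 CPM in siNC libraries (-0.54, adjusted p = 0.0231, same test). The groups did not overlap for either gene, and the differences were smaller than that of VASN. The CORO7 and CORO7-PAM16 counts are uncertain because these genes share exons. The libraries keep strand, but its use in counting is not given in the sources used here, and the part of opposite-strand reads in the VASN counts was not tested.

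**Figure D1:**
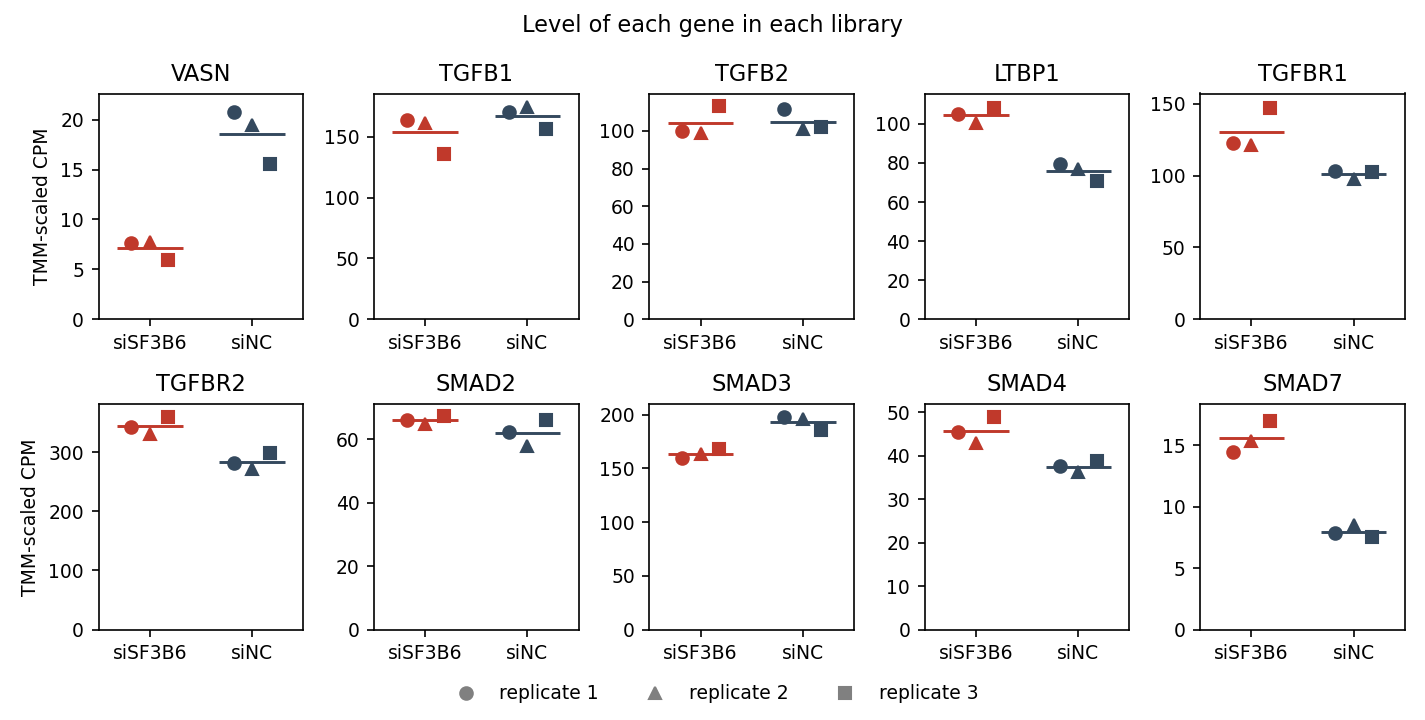
TMM-scaled CPM (vertical axis, linear and starting at 0, with its own scale in each panel) of the 10 genes in the 3 siSF3B6 libraries (red) and the 3 siNC libraries (dark blue). Symbols mark the replicate number and bars the group mean. The groups do not overlap for 7 genes, and do for TGFB1, TGFB2 and SMAD2.

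The ligand genes differed little in the main fit, and their values moved with the GC and length offset. TGFB1 encodes the founding ligand of the family and had 164, 161 and 136 CPM in siSF3B6 libraries, against 171, 175 and 156 CPM in siNC libraries. The groups overlapped, since siSF3B6 replicates 1 and 2 lay above siNC replicate 3. Its log2 fold change was -0.12 (SE 0.089), but 0.14 (SE 0.046) with the GC and length offset. Against siNC replicate 3 alone it was -0.036. The TGFB1 transcript has a GC content of 63.5%, and 6.64% of its exonic bases overlap an antisense gene.

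TGFB2, a second ligand, had 99.9, 99.0 and 113 CPM in siSF3B6 libraries, against 112, 101 and 102 CPM in siNC libraries. One library of each group stood above the others, siSF3B6 replicate 3 and siNC replicate 1, and the ranges overlapped. Its log2 fold change was -0.011 (SE 0.083), with -0.22 (SE 0.057) under the offset and 0.014 against siNC replicate 3 alone. The value under the offset was close to that of SMAD3 (-0.25, SE 0.049). The antisense gene TGFB2-AS1 stayed under 1 CPM in all 6 libraries. The FPKM ratio of TGFB1 to TGFB2 was 2.76 ± 0.470 in siSF3B6 and 2.96 ± 0.222 in siNC libraries (SD, n = 3 each), and overlapped.

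LTBP1, the matrix protein that anchors latent TGF-beta, was higher in siSF3B6 cells. It had 105, 100 and 108 CPM in siSF3B6 libraries, against 79.3, 77.0 and 70.8 CPM in siNC libraries. All siSF3B6 libraries lay above all siNC libraries. Its log2 fold change was 0.47 (SE 0.079), or 0.55 against siNC replicate 3 alone. Relative to TGFB1 in the same library, LTBP1 stood at 0.305 ± 0.043 in siSF3B6 and 0.201 ± 0.0055 in siNC libraries as a ratio of FPKM (SD, n = 3 each).

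The same ratio taken for VASN over TGFB1, the antagonist over the ligand it binds, was 0.0533 ± 0.0026 in siSF3B6 and 0.129 ± 0.013 in siNC libraries. Neither of these ratios overlapped between the groups. Both are ratios of transcripts, and protein was not measured.

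Both receptor genes were higher in siSF3B6 cells. TGFBR1, the type I receptor kinase that phosphorylates SMAD2 and SMAD3, had 122, 122 and 147 CPM in siSF3B6 libraries, against 103, 97.4 and 103 CPM in siNC libraries. The highest library, siSF3B6 replicate 3, stood apart from the other siSF3B6 libraries, and all of them exceeded the siNC libraries. The log2 fold change was 0.37 (SE 0.088), and with the GC and length offset it was 0.16. Against siNC replicate 3 alone it was 0.33.

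TGFBR2, the type II receptor that binds the ligand first and activates TGFBR1, had 342, 330 and 359 CPM in siSF3B6 libraries, against 281, 272 and 298 CPM in siNC libraries. The groups did not overlap, and the number 3 library was the highest of each group. Its log2 fold change was 0.28 (SE 0.078), 0.17 with scaling by library size only and 0.19 against siNC replicate 3 alone. The FPKM ratio of TGFBR2 to TGFBR1 was 2.64 ± 0.187 in siSF3B6 and 2.79 ± 0.085 in siNC libraries (SD, n = 3 each), with overlapping ranges.

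The receptor-activated SMADs differed from each other. SMAD2 had 66.0, 64.8 and 67.3 CPM in siSF3B6 libraries, against 62.3, 58.1 and 66.1 CPM in siNC libraries. The ranges overlapped, with siNC replicate 3 above siSF3B6 replicates 1 and 2. The log2 fold change was 0.087 (SE 0.080), with -0.021 under the offset, -0.015 with library size only and -0.013 against siNC replicate 3 alone.

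SMAD3, which binds DNA directly, had 160, 163 and 168 CPM in siSF3B6 libraries, against 198, 196 and 185 CPM in siNC libraries. It was lower in every siSF3B6 library than in any siNC library. The log2 fold change was -0.24 (SE 0.074), and -0.19 against siNC replicate 3 alone. Over the alternatives it lay between -0.34 and -0.19.

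SMAD4, the common partner of the receptor-activated SMADs, had 45.5, 42.9 and 48.8 CPM in siSF3B6 libraries, against 37.6, 36.3 and 38.7 CPM in siNC libraries. The groups did not overlap, and the siSF3B6 libraries were the higher ones. The log2 fold change was 0.29 (SE 0.083), and 0.11 (SE 0.052) with the GC and length offset. Against siNC replicate 3 alone it was 0.23. The FPKM ratio of SMAD3 to SMAD4 was 4.71 ± 0.248 in siSF3B6 and 6.78 ± 0.424 in siNC libraries (SD, n = 3 each), without overlap.

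SMAD7, the inhibitory SMAD that competes for the receptors and recruits ubiquitin ligases to them, showed the largest positive difference of the 10. It had 14.4, 15.4 and 17.0 CPM in siSF3B6 libraries, against 7.85, 8.55 and 7.50 CPM in siNC libraries. These came from 424, 568 and 520 reads in siSF3B6 and 245, 258 and 252 reads in siNC libraries. Every siSF3B6 library was well above every siNC library, and siNC replicate 3 was the lowest of all 6. The mean was 15.6 ± 1.30 CPM in siSF3B6 and 7.97 ± 0.532 CPM in siNC (SD, n = 3 each), a log2 fold change of 0.97 (SE 0.107).

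The value for SMAD7 was 1.11 with the GC and length offset, 1.04 against siNC replicate 3 alone and 0.87 within the libraries numbered 1 and 2. Over all 21 alternatives it lay between 0.64 and 1.11. The FPKM ratio of SMAD7 to SMAD3 was 0.241 ± 0.014 in siSF3B6 and 0.104 ± 0.0050 in siNC libraries (SD, n = 3 each), without overlap.

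**Figure D2:**
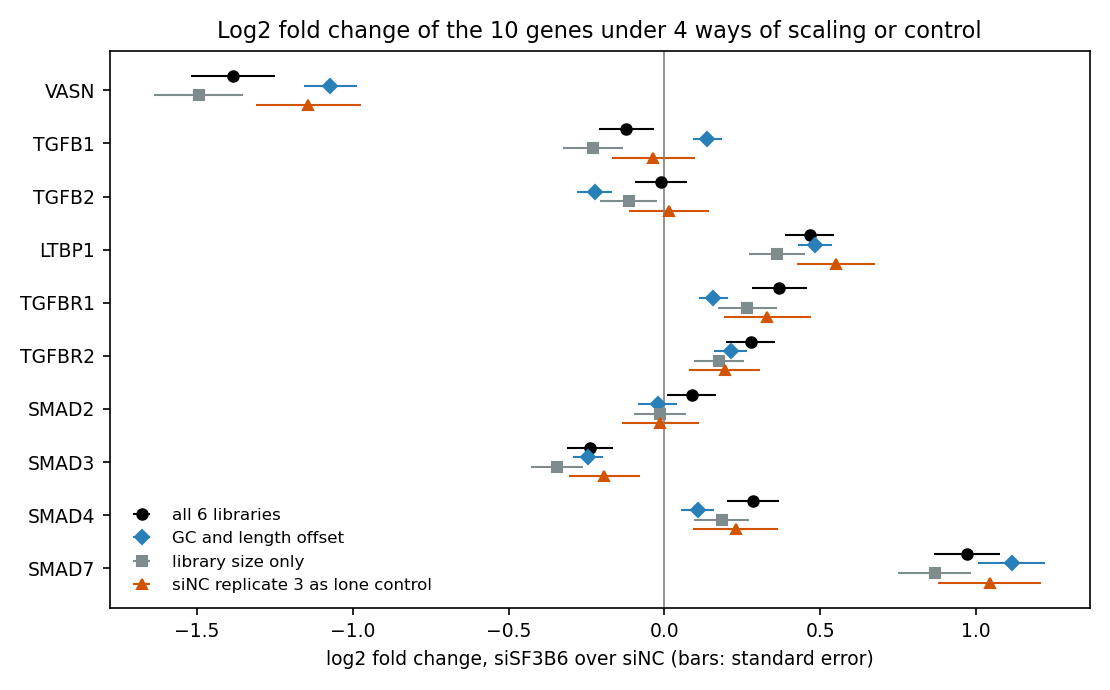
Log2 fold change of siSF3B6 over siNC (horizontal axis, bars: standard error) for the 10 genes with all 6 libraries, with a GC and length offset, with scaling by library size only, and against siNC replicate 3 alone. VASN lies between -1.49 and -1.07 and SMAD7 between 0.87 and 1.11 in the 4 settings, while TGFB1, TGFB2 and SMAD2 lie on both sides of 0.

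Of the 10 genes, 5 were higher and 2 lower at an adjusted p under 0.05, as were 40.8% of all tested genes in either direction. The same 7 had groups that did not overlap, as 52.1% of all tested genes did. Without siNC replicate 1, or without siNC replicate 2, 3 were higher and 1 lower. Of all genes, 5164 of 17219 and 5044 of 17213 were then called. Scaling by library size only gave 3 higher and 2 lower, beside 7017 of 16869 genes called. Unfiltered log2(FPKM + 1) gave 2 higher and 2 lower, beside 4567 of 39210 genes called. With the GC and length offset 5 were higher and 3 lower, beside 7860 of 16869 genes called. Within the libraries numbered 1 and 2, 6 were higher and 2 lower, beside 9470 of 17045 genes called. These counts describe a set chosen on this contrast and nothing is read from them. The median log2 fold change of the 10 was 0.18, beside 0.00093 over all tested genes. With scaling by library size only, the median over all tested genes was -0.10.

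Compared per transcript length, the order of the genes was not the same in both groups. In siSF3B6 cells TGFBR2 (41.4 ± 1.67 FPKM) and TGFB1 (38.9 ± 3.99 FPKM) came first, with overlapping ranges (SD, n = 3). TGFBR1 (15.8 FPKM), TGFB2 (14.2) and SMAD3 (13.5) followed with neighbouring ranges that overlapped, then LTBP1 at 11.7 FPKM. The low end was SMAD7 (3.26 FPKM), SMAD4 (2.88), VASN (2.08) and SMAD2 (1.49), where the ranges of SMAD7 and SMAD4 overlapped. In siNC cells TGFB1 (43.9 ± 2.14 FPKM) stood above TGFBR2 (35.4 ± 2.03 FPKM), and SMAD3 (16.6), TGFB2 (14.8), TGFBR1 (12.7), LTBP1 (8.81), VASN (5.65), SMAD4 (2.45), SMAD7 (1.73) and SMAD2 (1.46) followed. No neighbours in the siNC order overlapped over the 3 libraries.

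VASN thus held place 9 in siSF3B6 and place 7 in siNC cells, and SMAD7 held place 7 in siSF3B6 and place 9 in siNC cells. Over all 6 libraries VASN averaged 3.87 FPKM, at percentile 63.3 of the 18600 protein-coding genes in the FPKM table, and TGFB1 averaged 41.4 FPKM, at percentile 95.2. The length behind the FPKM of SMAD2 was 12.9 times that of VASN, the longest of the 10, so its place rests on a transcript model with a very long 3′ UTR.

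The remaining genes lie in GRCh38 (GENCODE 29) at chr19:41301587-41353911 for TGFB1 (ENSG00000105329.11, minus strand) and chr1:218346235-218444619 for TGFB2 (ENSG00000092969.12, plus). LTBP1 (ENSG00000049323.16, plus) is at chr2:32946972-33399509 with 34 exons, all coding. TGFBR1 (ENSG00000106799.13, plus) is at chr9:99104038-99154192 and TGFBR2 (ENSG00000163513.19, plus) at chr3:30606502-30694142. SMAD3 (ENSG00000166949.17, plus) is at chr15:67063763-67195195. SMAD2 (ENSG00000175387.16, minus), SMAD7 (ENSG00000101665.10, minus) and SMAD4 (ENSG00000141646.14, plus) lie on 1 chromosome, at chr18:47808957-47931146, chr18:48919853-48952052 and chr18:51028394-51085045. SMAD7 lies between the other two. An antisense gene overlaps 3.40% of the exonic bases of LTBP1 and 2.00% of those of SMAD3, and, TGFB1 aside, none in the remaining 7 genes.

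The genes with profiles most like that of VASN were E2F2, CENPM, LGMN, BATF3 and E2F1, by the root mean square difference of centred log2 CPM over the 6 libraries (0.062 to 0.076). E2F1 and E2F2 are transcription factors of the cell cycle, CENPM a centromere protein, LGMN a lysosomal protease and BATF3 a transcription factor of the AP-1 family. LGMN, for example, had 40.4, 38.4 and 33.3 CPM in siSF3B6 libraries, against 107, 100 and 88.0 CPM in siNC libraries. The 5 genes had GC contents of 52.5% (LGMN) to 63.3% (BATF3) and log2 fold changes of -1.43 (CENPM) to -1.31 (BATF3). In all 6 profiles the number 3 library was the lowest of its group. Likeness over 6 libraries in 2 groups mostly reflects the group difference, and these genes were picked for it.

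**Figure D3:**
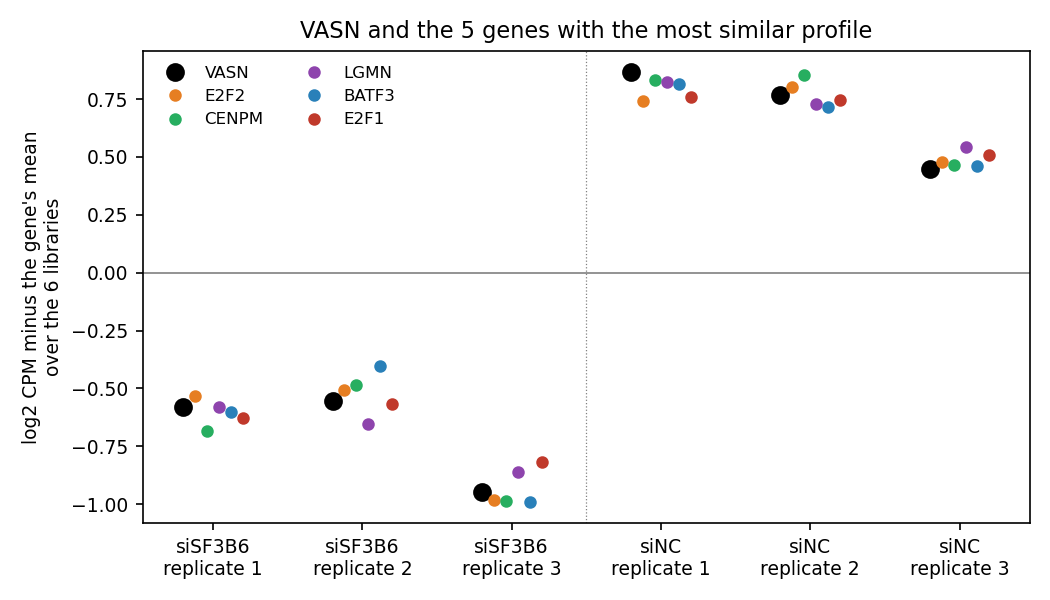
Log2 CPM minus the gene's mean over the 6 libraries (vertical axis) for VASN and the 5 tested genes of at least 5 CPM whose profile was closest to it, with siSF3B6 libraries left of the dotted line and siNC libraries right of it. VASN runs from -0.95 in siSF3B6 replicate 3 to 0.87 in siNC replicate 1, and siNC replicate 3 (0.45) lies nearest to the siSF3B6 libraries among the controls.

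To set the 10 genes beside the rest of the pathway, 106 other genes in 7 lists by role were counted in the same test. Of the 98 that had enough reads, 49 rose, 9 fell and 40 did not pass an adjusted p of 0.05 (edgeR's quasi-likelihood test, adjusted over all genes tested). Among all tested genes 20.8% rose and 20.0% fell. The list members had a median log2 fold change of 0.28, beside 0.00093 for all tested genes. The lists were written with earlier results of these libraries known, and no list was tested as a set. With scaling by library size only, 36 rose and 15 fell, while 2459 of all 16869 tested genes rose and 4558 fell. Against siNC replicate 3 alone the median of the lists was 0.28, beside 0.0058 for all tested genes. Within the libraries numbered 1 and 2, 54 rose and 16 fell, while 4870 of all 17045 tested genes rose and 4600 fell.

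Of 11 tested ligand genes of the wider family, 4 rose and 2 fell, with a median of -0.042. INHBA, the subunit of activin A, rose to 7.80 ± 1.20 CPM in siSF3B6, against 3.11 ± 0.175 CPM in siNC (log2 fold change 1.33, adjusted p = 2.10e-05). BMP4, a bone morphogenetic protein, rose to 310 ± 3.09 CPM in siSF3B6, against 184 ± 21.5 CPM in siNC (0.75, adjusted p = 3.28e-05). BMP2 rose by 0.81 on the log2 scale (adjusted p = 0.000465). GDF11, an activin-like ligand, fell by 0.31 (adjusted p = 0.0313), a call that was lost when siSF3B6 replicate 1 or 3 or siNC replicate 2 or 3 was left out (adjusted p = 0.0542 to 0.0951). Without siSF3B6 replicate 1, 2 or 3 the count of ligands that fell was 1. It was 0 without siNC replicate 2 and with DESeq2, where 2 fell at an unadjusted p under 0.05 in either case. For BMP2 and GDF11 the log2 fold change against siNC replicate 3 alone was 0.53 and -0.45. Library size alone gave 3 that rose and 4 that fell, and the libraries numbered 1 and 2 gave 4 and 4. The other called ligands, named after their values were seen, were GDF15, which rose by 0.49 (adjusted p = 0.0216), and BMP8B, which fell by 0.79 at a mean under 2 CPM in either group (adjusted p = 0.0172).

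Of 17 tested genes of latency, activation and ligand traps, 7 rose and 5 fell, with a median of 0.15. ADAM17, the protease that sheds vasorin, rose to 66.2 ± 6.13 CPM in siSF3B6, against 40.2 ± 0.854 CPM in siNC (log2 fold change 0.72, adjusted p = 3.98e-05). FURIN, which cleaves the TGF-beta precursor, rose to 67.2 ± 2.27 CPM in siSF3B6, against 41.2 ± 0.705 CPM in siNC (0.71, adjusted p = 1.94e-05). FBN1, the microfibril protein to which latent complexes attach, rose by 0.80 (adjusted p = 2.77e-05). LTBP4, a relative of LTBP1, fell to 52.2 ± 5.62 CPM in siSF3B6, against 88.9 ± 18.4 CPM in siNC (-0.77, adjusted p = 0.000537). NRROS, which tethers latent TGF-beta at the cell surface, fell by 0.70 (adjusted p = 0.000483), and FSTL3, an activin-binding protein, by 0.52 (adjusted p = 0.000164). The number that rose was 4 without siNC replicate 2. LTBP4 was at -0.39 and NRROS at -0.48 on the log2 scale against siNC replicate 3 alone. LTBP1 and LTBP4 thus lay on opposite sides of 0 in all 21 alternatives.

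Of 11 tested receptor genes other than TGFBR1 and TGFBR2, 7 rose and 0 fell, with a median of 0.32. None fell at an unadjusted p under 0.05 either, by edgeR, DESeq2 or limma-voom. ACVR2A, an activin type II receptor, rose by 0.50 (adjusted p = 0.00455), BMPR1A by 0.47 (adjusted p = 0.00154) and BMPR2 by 0.38 (adjusted p = 0.00545), both receptors of bone morphogenetic proteins. These differences were of about the size seen for TGFBR1 and TGFBR2. The number that rose was 4 with library size only. ACVR2A was at 0.41, BMPR1A at 0.31 and BMPR2 at 0.28 on the log2 scale against siNC replicate 3 alone.

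**Figure D4:**
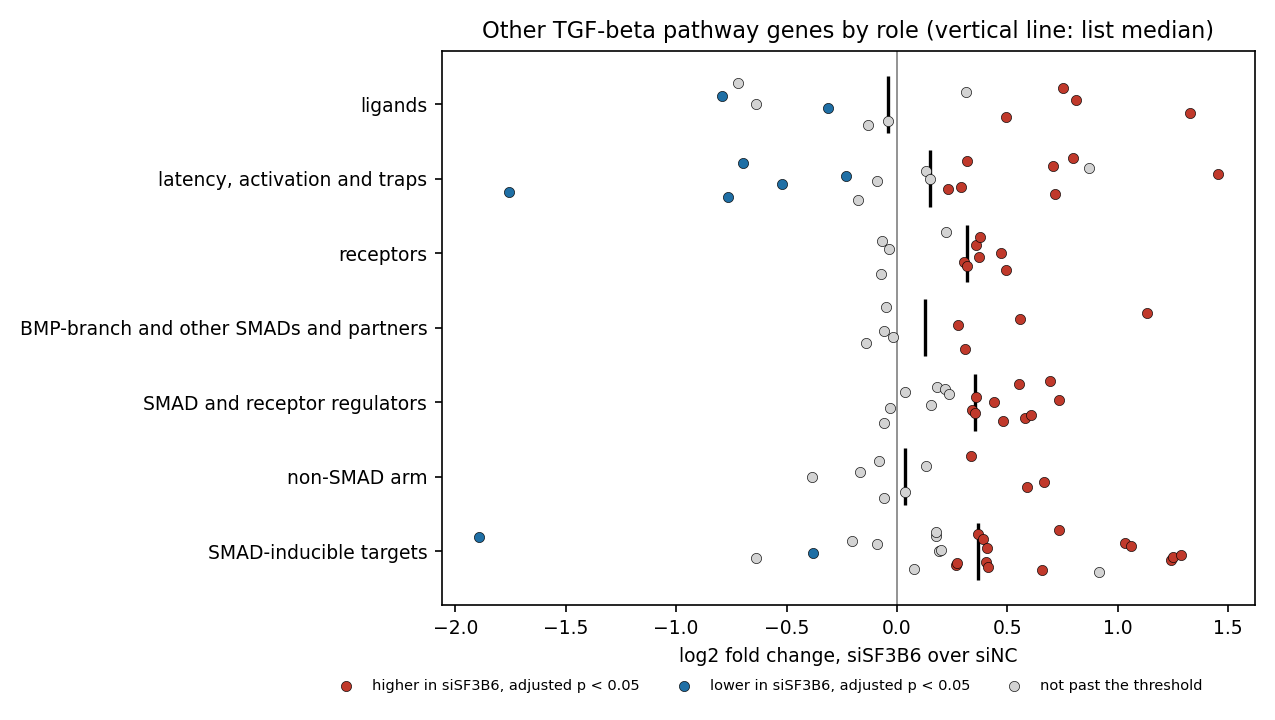
Log2 fold change of siSF3B6 over siNC (horizontal axis) for the 98 tested pathway genes other than the 10, in 7 lists by role, with a vertical bar at each list's median. Red points rose and blue points fell at an adjusted p under 0.05, and grey points did not pass. With scaling by library size only the counts of 49 and 9 became 36 and 15. Among all 16869 tested genes, 2459 then rose and 4558 fell.

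Of 8 SMADs of the bone morphogenetic protein branch and SMAD partners, 4 rose. ZFYVE9, also called SARA, which presents SMAD2 and SMAD3 to the receptor, rose by 0.56 (adjusted p = 0.000635). ZFYVE16, an endosomal protein that binds SMAD4, and TRIM33, which binds phosphorylated SMAD2 and SMAD3, rose by 0.28 (adjusted p = 0.0307) and 0.31 (adjusted p = 0.0294). Both calls were lost with the GC and length offset (adjusted p = 0.615 for ZFYVE16 and 0.195 for TRIM33). In that setting 2 genes of the list rose and 1 fell. Both calls were also lost without siNC replicate 1, siNC replicate 2 or siSF3B6 replicate 3, each of which left 2 genes called. ZFYVE16 also lost its call without siSF3B6 replicate 1 (adjusted p = 0.0576). Against siNC replicate 3 alone the log2 fold change was 0.48 for ZFYVE9, 0.25 for ZFYVE16 and 0.15 for TRIM33.

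Of 17 regulators of SMADs and receptors, 10 rose, with a median of 0.35. Those named were RNF111, SKIL, PMEPA1 and USP15. USP15, a deubiquitinase that acts on the type I receptor and on receptor-activated SMADs, rose to 81.6 ± 9.35 CPM in siSF3B6, against 49.0 ± 0.311 CPM in siNC (log2 fold change 0.73, adjusted p = 4.44e-05). SKIL, a SMAD corepressor that is itself a TGF-beta target, rose by 0.69 (adjusted p = 0.00091). RNF111, the ligase that degrades SKIL and SMAD7, rose by 0.61 (adjusted p = 0.000672). PMEPA1, a target that restrains receptor-activated SMADs, rose to 47.6 ± 1.02 CPM in siSF3B6, against 31.9 ± 3.03 CPM in siNC (0.58, adjusted p = 0.000233). Against siNC replicate 3 alone the log2 fold change was 0.49 for SKIL and 0.48 for RNF111.

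Of 9 genes of the arm that does not use SMADs, 3 rose and 0 fell by edgeR, with a median of 0.037, and 1 fell at an unadjusted p under 0.05. With limma-voom, RLE factors, robust dispersion, the replicate block or siSF3B6 replicate 2 left out 1 fell, with DESeq2 0, and with library size only, the GC and length offset or the libraries numbered 1 and 2 alone, 2 fell. TRAF6, the ubiquitin ligase that links the receptors to TAK1, rose by 0.66 (adjusted p = 0.000106), and TAB3, a TAK1 binding protein, by 0.59 (adjusted p = 0.000548). DAB2, an adaptor of the receptors, rose by 0.34 (adjusted p = 0.00834), but not past the threshold without siNC replicate 2 (adjusted p = 0.0539). Against siNC replicate 3 alone the log2 fold change was 0.51 for TAB3 and 0.19 for DAB2.

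Of 25 tested genes that SMADs are known to induce in one cell type or another, 14 rose and 2 fell, with a median of 0.37. CCN2, a matricellular protein, rose to 259 ± 8.60 CPM in siSF3B6, against 197 ± 7.39 CPM in siNC (0.39, adjusted p = 0.00104). TGFBI, a secreted matrix protein, rose by 0.27 (adjusted p = 0.0183), a call lost without siSF3B6 replicate 1 (adjusted p = 0.0722) or siNC replicate 2 (adjusted p = 0.0597).

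The largest changes among these targets went in both directions. IL11, a cytokine tied to bone metastasis of breast cancer, fell to 6.23 ± 0.897 CPM in siSF3B6, against 23.2 ± 2.34 CPM in siNC (-1.89, adjusted p = 7.55e-07). CDKN1A, the cyclin-dependent kinase inhibitor p21, fell by 0.38 (adjusted p = 0.00454). ID3, an inhibitor of basic helix-loop-helix factors that responds to bone morphogenetic proteins, rose to 125 ± 13.0 CPM in siSF3B6, against 52.6 ± 3.36 CPM in siNC (1.25, adjusted p = 1.27e-06). NEDD9, a scaffold of focal adhesions, rose to 40.2 ± 2.89 CPM in siSF3B6, against 17.0 ± 1.93 CPM in siNC (1.24, adjusted p = 2.59e-06). LOX, which crosslinks collagen, rose by 1.03 (adjusted p = 1.30e-05). Without siSF3B6 replicate 1, 9 targets rose. CCN2 was at 0.32, TGFBI at 0.39 and CDKN1A at -0.20 on the log2 scale against siNC replicate 3 alone. The offset for GC content and length gave 19 that rose and 4 that fell, and library size only gave 10 and 4.

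The fit against siNC replicate 3 alone assumes that the lone library varies like the siSF3B6 libraries, so its calls are not counted here. Of the 30 called genes named from the lists, BMP2 (0.53), LTBP4 (-0.39) and BMPR1A (0.31) moved by more than 1.5 times in it. So did TRIM33 (0.15), DAB2 (0.19) and CDKN1A (-0.20). All 30 kept their direction in all 21 alternatives. With the GC and length offset 8 called genes moved by more than 1.5 times and stayed past the threshold, LTBP4 (-0.46), FSTL3 (-0.23), ACVR2A (0.28), BMPR1A (0.30), BMPR2 (0.17), SKIL (0.45), TAB3 (0.39) and CDKN1A (-0.205). Library size alone ended the calls of ZFYVE16 (adjusted p = 0.183), TRIM33 (0.124) and TGFBI (0.171), and DESeq2 that of GDF11 (0.0574).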

How the data were processed

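The authors deposited raw counts of reads for each gene in 6 libraries of polyadenylated RNA. FPKM values were deposited by the authors too, for 39210 genes and with 2 decimals. HISAT2, DESeq2 and hg38 are named, without versions, in the submitters' processing notes, while the sources used here do not name the read counter, its strand setting or the annotation. The libraries were made strand-specific by removing the dUTP-marked strand, per the labels' protocols. Titles gave the groups, since the labels' cell line field counts upward from MDA-MB-231.

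Counts were filtered (filterByExpr), scaled (TMM) and tested by edgeR 4.0.16 (R 4.3.3) with the quasi-likelihood test, siSF3B6 against siNC, without a replicate block, and Benjamini-Hochberg adjustment over 16869 genes at 0.05. The SE is the log2 fold change over the square root of F. The fit was also run on simulated counts, drawn from the same mean profile for every library apart from set changes. Those counts did not hold the differences among the siNC libraries. The 10 genes and the lists were chosen with earlier results of these data known. Genes named from a list were at most 3 per direction, the largest called changes at 5 CPM or more without overlap between groups, plus CCN2, TGFBI, SKIL, PMEPA1 and ADAM17. One gene that the rule names is not reported here. Alternatives were RLE factors, library size only, other count filters, robust dispersion, a replicate block, a GC and length offset (lowess, span 0.3), DESeq2 1.42.0, limma-voom (limma 3.58.1), limma on log2(FPKM + 1) or log2(FPKM + 0.1) at 0.5 mean FPKM or unfiltered, and subsets of libraries. Positions and lengths are from GENCODE 29, which may differ from what the authors used, and promoters from RefSeq. Every column of the tables was used.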

Additional observations from a re-analysis of the deposited data

How the results depend on the processing

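Counts over all genes and over the 98 other pathway genes depended on the controls and on scaling. All genes called numbered 6889 (3509 higher, 3380 lower), 2471 with siNC replicate 3 as the lone control and 4567 with unfiltered log2(FPKM + 1); leaving out 1 library gave 5044 to 7571. With library size only 2459 were higher and 4558 lower, and the 3 FPKM settings put 41.4% to 41.5% of calls on the higher side, against 50.9%. Pathway genes higher numbered 49, but 18 with the lone control and 28 with unfiltered log2(FPKM + 1), and 39 to 49 with 1 library left out. Pathway genes lower numbered 9, but 15 with library size only, 14 with the GC and length offset with or without the replicate block, 16 within libraries 1 and 2 and 2 with the lone control, and 7 to 10 with 1 library left out. The share of pathway calls that were higher was 84.5%, and 70.6% with library size only. The cause was not tested. Of 210 values of the 10 genes, 173 moved by less than the spread between replicates and 37 by more. SF3B6 stayed between -2.16 and -1.80.

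Replicate numbers were not taken to pair the libraries: same-numbered libraries deviated together with correlations of 0.040, 0.106 and 0.136, although every library correlated best with its own number. With the replicate block 8052 genes were called, and 53 pathway genes rose and 10 fell. Depth limits VASN and SMAD7 most, the members with the fewest reads, and genes under 1 CPM.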

Other observations

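The following pathway genes lie outside the rule for named genes and were picked after their values were seen. The integrin subunits that activate latent TGF-beta went opposite ways, 1 of them at very few reads. ITGB8 rose to 3.54 CPM in siSF3B6, against 1.29 CPM in siNC (log2 fold change 1.45, adjusted p = 0.000112, edgeR's quasi-likelihood test). ITGB6, under 1 CPM in all 6 libraries and down to 0.054 CPM in siSF3B6 replicate 2, fell to 0.162 CPM in siSF3B6, against 0.537 CPM in siNC (-1.76, adjusted p = 0.00757, same test). Their shared partner ITGAV had 88.8 CPM in siSF3B6 and 80.1 CPM in siNC libraries, with overlapping ranges (0.15, adjusted p = 0.223). ID1 and ID2, relatives of ID3, both rose, by 0.41 (adjusted p = 0.00443) and by 1.29 (adjusted p = 0.00121), the second at a mean under 3 CPM in either group. SMAD9, a SMAD of the bone morphogenetic protein branch, rose by 1.14 at a mean under 2 CPM in either group (adjusted p = 0.00486), while SMAD1, SMAD5 and SMAD6 had log2 fold changes of -0.018, -0.047 and -0.14 that did not pass (adjusted p = 0.932, 0.745 and 0.408). Snail family factors differed in size: SNAI2 rose by 0.66 (adjusted p = 0.000178), and SNAI1 had 8.43 CPM in siSF3B6 and 7.34 CPM in siNC libraries (0.20, adjusted p = 0.293).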
